A study of Rattus norvegicus with 10 samples.

Results

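The messenger RNA of 5 genes of mucosal defence was followed in 10 rat lacrimal glands: Dmbt1, Lgals3bp, Lcn2, Cst3 and Pigr. They were chosen by gene symbol around Dmbt1, whose intensity was higher in every denervated gland than in every control gland, so that contrast is described here without a test for these genes. Of the 5 genes, 4 had probe sets, 7 in all, and were among the 4736 genes with a symbol on the array. Each of the 7 passed the filter on dim probe sets. Pigr had no probe set under that symbol and has no value here. The array is an Affymetrix rat array with 1 gland per array. Denervated glands (n = 5) were removed on day 7 after the greater superficial petrosal nerve, the route of the parasympathetic fibres to the gland, had been cut. The control glands (n = 5) were 3 contralateral glands taken at 7 days after that operation, the gland of a normal unoperated animal and a gland taken 7 days after a sham operation. The descriptions of the 3 contralateral glands place them on the operated side, while their titles call them contralateral, and the titles were followed. The labels give no strain, sex or age, and nothing says that numbered glands came from separate animals, so spreads between glands may be technical.

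Tear fluid carries proteins that keep microbes off the surface of the eye. Dmbt1 encodes a large secreted glycoprotein built of scavenger receptor cysteine-rich (SRCR) domains, which binds and clumps bacteria. Its rat form was described as ebnerin in the glands of the tongue. Lgals3bp, a secreted glycoprotein with an SRCR domain, binds galectins and is induced by interferon in other tissues. Lcn2, a lipocalin, captures the siderophores with which bacteria take up iron, and is made by inflamed epithelium and by neutrophils. Cst3, or cystatin C, inhibits cysteine proteases, among them many cathepsins. Pigr carries polymeric immunoglobulins across the epithelium into the fluid.

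Sequences before Lgals3bp and Lcn2 are shown because these genes differ in the inducers they are known for. They are the bases that precede the gene, as the RefSeq gene table of the GRCr8 assembly bounds it, within the 250 bases before the start that the RefSeq promoter table uses, written 5′ to 3′ on the gene's strand. For Lgals3bp these are all 250 bases, chr10:104127849-104128098 (minus strand). For Lcn2 they are 179 bases, chr3:36081852-36082030 (minus strand), since the start of the promoter table lies within the gene and the other 71 bases are inside it. Capitals mark matches to any of 5 motifs, searched on both strands.
Lgals3bp: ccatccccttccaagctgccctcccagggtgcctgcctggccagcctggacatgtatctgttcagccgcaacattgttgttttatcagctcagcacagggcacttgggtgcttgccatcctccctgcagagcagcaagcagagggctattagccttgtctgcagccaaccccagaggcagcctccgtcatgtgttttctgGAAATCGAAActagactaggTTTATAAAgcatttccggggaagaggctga
Lcn2: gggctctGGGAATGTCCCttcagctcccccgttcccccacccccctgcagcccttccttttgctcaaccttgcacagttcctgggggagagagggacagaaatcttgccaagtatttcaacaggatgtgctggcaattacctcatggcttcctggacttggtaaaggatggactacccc

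The Lgals3bp stretch held GAAATCGAAA, a match to GAAA, any 2 bases and GAAA, the core of interferon response elements, from 50 to 41 bases before the start of the promoter table. It also held 2 overlapping matches to the TATA box motif TATAAA, on opposite strands, between 30 and 23 bases before that start. The Lcn2 stretch held GGGAATGTCC, a match to the NF-kappaB-like motif GGGA, any 3 bases and TCC, from 243 to 234 bases before it, which overlaps a second match on the other strand. For Cst3, 179 of the 250 bases lie inside the gene, so its stretch is not shown. The 1 match there, the GC box GGGCGG, lies in those bases. Of 33469 rat promoter stretches of 250 bases, 3.41% held the interferon-type motif, 12.9% the TATA motif, 3.38% the NF-kappaB-like motif and 30.5% the GC box. The STAT-type motif TTC, any 3 bases and GAA, whose matches on the 2 strands overlap, was in 7.67% of them and in none of the 250-base stretches of Lgals3bp, Lcn2 and Cst3. Each match is a match of letters only. The promoter of Dmbt1 is not used here.

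The 10 glands were not alike, and the difference crosses the groups. Denervated 1, contralateral 1 and sham stood apart: correlations of log2 intensity across probe sets were 0.851 to 0.898 among these 3 and 0.715 to 0.821 between them and the other 7 glands. Among the other 7 they were 0.752 to 0.912, so those glands were not all alike either. Denervated 5 had 0.847 with denervated 2 and 0.752 to 0.804 with the rest of the 7. Dnase1, a secreted nuclease of the lacrimal gland, had an intensity of 231646 in denervated 1, 438126 in contralateral 1 and 465066 in sham, against 178 to 21433 in the other 7. Denervated 2 and 5 had the highest summed intensity of 4 blood cell markers, 358909 and 375229, against 29433 to 178911 in the other 8. Lacrimal markers were present: the water channel Aqp5 ranged from 7292 to 14454 in denervated and from 4147 to 16470 in control glands, and of 14 markers listed, 11 were on the array and none was at the floor throughout. Means were higher in denervated glands for 8 of 8 myoepithelial, 9 of 10 fibroblast and matrix, 4 of 5 duct, 8 of 15 T and natural killer cell, 3 of 4 blood, 1 of 2 B and plasma cell and 1 of 8 salivary gland markers measured, with no test. The salivary sums split glands within both groups: they were 4159 to 12927 in denervated 1, 2 and 5, against 18761 in contralateral 1 and 35482 in sham, and 273990 and 802091 in denervated 3 and 4, against 761326 to 795972 in the other 3 controls. Scgb2a1, a secretoglobin, had the same glands low, at 72 to 154, and the others at 74352 to 360033. In bulk tissue, fewer cells of a type and less RNA per cell cannot be told apart.

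Dmbt1 was the gene around which the others were chosen. Its 2 probe sets put the glands in nearly the same order (Pearson's r = 0.96 over 10 glands). At the brighter, U32681_at, denervated glands 1 to 5 had intensities of 37388, 99460, 45312, 32637 and 120070, against 29862, 25117 and 16783 in contralateral glands 1 to 3, 14496 in the unoperated gland and 18008 in the sham gland. The lowest denervated gland, at 32637, lay just above the highest control gland, at 29862, while denervated 2 and 5 lay far above all others. Log2 intensities averaged 15.83 ± 0.85 in denervated glands, against 14.30 ± 0.43 in controls (SD, n = 5 each), 2.89-fold higher in denervated glands. At the other probe set, U32681_g_at, denervated glands had 13392, 48181, 21979, 21357 and 63499, against 8202, 10525 and 4521 in contralateral glands, 5159 in the unoperated gland and 3517 in the sham gland. Here too the groups did not overlap, with 13392 as the lowest denervated and 10525 as the highest control value. Over all 6118 probe sets tested, 0.637% had every denervated gland above every control gland. That figure is background only, since the same order of glands chose Dmbt1.

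The size of the Dmbt1 difference depended on which glands entered it. Mean levels were highest in denervated, then in contralateral, and lowest in the unoperated and sham glands, but contralateral 3, at 16783, lay below the sham gland at the brighter probe set. Denervated glands were 2.50-fold above contralateral and 3.59-fold above unoperated and sham glands at the brighter probe set, and 3.92-fold and 6.72-fold at the other. These comparisons share the denervated glands. Among the 3 glands that stood apart, denervated 1 exceeded the mean of contralateral 1 and sham by 0.69 and 1.32 (log2) at the 2 probe sets. Without these 3 glands, where the groups could not overlap since they did not with all 10, the log2 difference was 1.83 and 2.47. Without denervated 2 and 5 it was 0.92 and 1.65, against 1.53 and 2.28 with all 10 glands. Fibroblast and matrix markers, summed over 10 genes, were 265319 and 631877 in denervated 2 and 5, against 141667 to 239743 in denervated 1, 3 and 4 and 107408 to 197822 in control glands. The part of these cells in the difference was not tested.

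**Figure D1:**
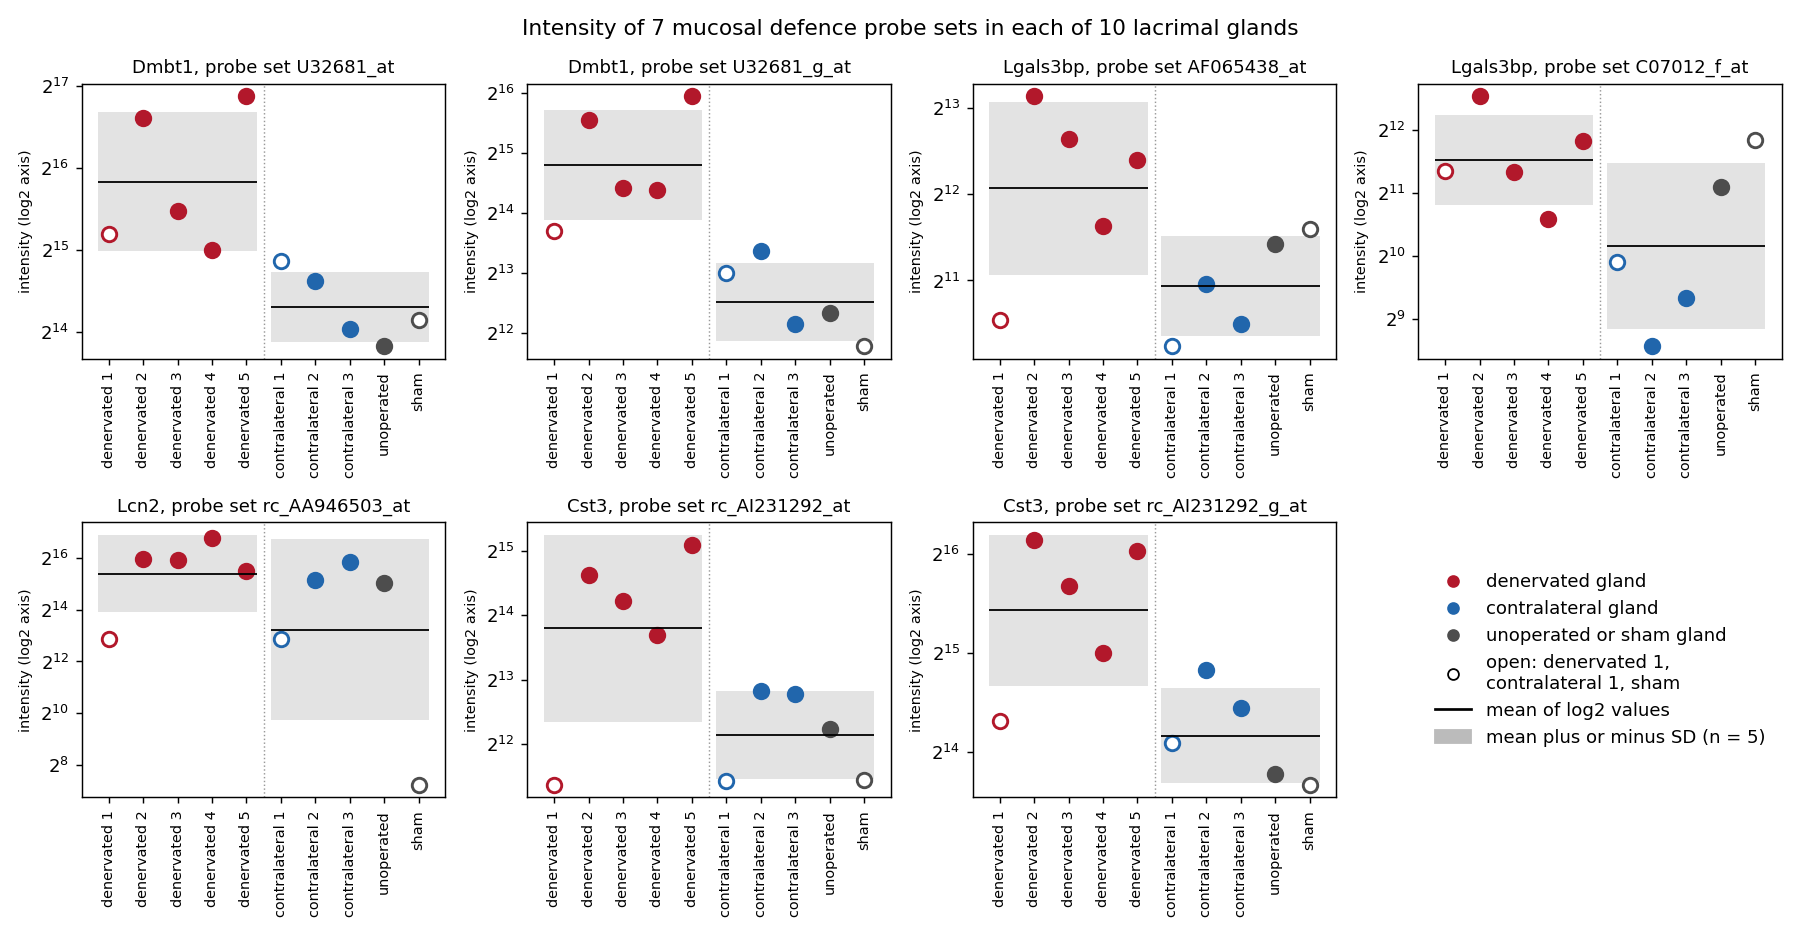
Intensity (log2 axis) of 7 probe sets of Dmbt1, Lgals3bp, Lcn2 and Cst3 in each gland, with denervated glands left of control glands. Lines and bands are the mean of log2 values and its SD (n = 5), open points are denervated 1, contralateral 1 and sham. Both Dmbt1 probe sets separate the groups, whereas Lcn2 is low in the open points, from 149 to 7578.

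Cst3 was the gene with the pattern nearest to Dmbt1 among the other 3 measured. At its brighter probe set, rc_AI231292_g_at, denervated glands 1 to 5 had intensities of 20421, 72009, 52172, 32721 and 66580, against 17545, 29201 and 22286 in contralateral glands 1 to 3, 14104 in the unoperated and 13071 in the sham gland. Denervated 2 to 5 lay above all 5 controls, and denervated 1 lay among them. Log2 intensities averaged 15.43 ± 0.76 in denervated glands, against 14.17 ± 0.48 in controls (SD, n = 5 each). At the dimmer probe set, rc_AI231292_at, denervated glands had 2642, 25172, 19022, 13298 and 35053, against 2746, 7253 and 7038 in contralateral glands, 4829 in the unoperated and 2790 in the sham gland. Denervated 1, contralateral 1 and sham, at 2642, 2746 and 2790, were the 3 lowest glands at this probe set, with denervated 1 below every control.

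The 2 Cst3 probe sets correlated at r = 0.93 over the 10 glands. Without denervated 1, contralateral 1 and sham, the log2 differences were 1.35 and 1.79, against 1.26 and 1.66 with all glands. Every remaining denervated gland then lay above every remaining control at both probe sets. That order is easier to reach with fewer glands and without denervated 1, which had overlapped, and its share over all probe sets was not counted. Denervated 1 differed from the mean of contralateral 1 and sham by 0.43 and -0.07. Without denervated 2 and 5 the differences were 0.83 and 0.95. Macrophages also express Cst3. Of 12 macrophage and monocyte markers measured, 11 had a higher mean in denervated glands, and their summed intensity was 87382 in denervated 1, 363842 in denervated 2, 256907 in denervated 3, 276362 in denervated 4 and 365833 in denervated 5, against 55608 to 153582 in control glands. These sums include Lyz2, which was also counted among the lacrimal markers, at 13741 to 49874 over the 10 glands. Denervated 2 to 5 lay above all controls in the sums too, and the part of macrophages in the Cst3 values was not tested.

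Lgals3bp separated most of the denervated glands from controls at 1 probe set and few at the other. At AF065438_at, denervated glands 1 to 5 had intensities of 1490, 9044, 6402, 3186 and 5422, against 1208, 1989 and 1444 in contralateral glands 1 to 3, 2754 in the unoperated and 3094 in the sham gland. Denervated 2 to 5 lay above all controls and denervated 1 among the contralateral glands. Log2 intensities averaged 12.07 ± 1.01 in denervated glands, against 10.94 ± 0.58 in controls (SD, n = 5 each), 2.19-fold higher in denervated glands. At C07012_f_at, denervated glands had 2612, 5939, 2562, 1540 and 3606, against 959, 379 and 642 in contralateral glands, 2178 in the unoperated and 3661 in the sham gland. At this probe set all 5 denervated glands lay above the contralateral glands, but only denervated 2 lay above the sham gland. Its suffix marks a set that can match several members of a sequence family, and the 2 sets agreed less than those of the other genes (r = 0.71 over 10 glands).

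For Lgals3bp, then, the control chosen set the size. Denervated glands were 2.85-fold and 4.78-fold above contralateral glands at the 2 probe sets, and 1.48-fold and 1.04-fold above the unoperated and sham glands. Without denervated 1, contralateral 1 and sham the log2 differences from control glands were 1.50 and 1.91, against 1.13 and 1.38 with all 10 glands. Denervated 1 differed from the mean of contralateral 1 and sham by -0.38 and 0.48, so its direction differed between the probe sets. Without denervated 2 and 5 the differences from control glands were 0.66 and 0.94.

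Lcn2 had 1 probe set, rc_AA946503_at, and its 3 lowest values were those of the 3 glands that stood apart. Denervated glands 1 to 5 had intensities of 7443, 64533, 62949, 113652 and 46079, against 7578, 36246 and 59525 in contralateral glands 1 to 3, 33592 in the unoperated and 149 in the sham gland. Denervated 1 and contralateral 1 were nearly equal and the sham gland was below the floor of 156.2. Denervated 4 was the highest of all glands, and 3 of 5 denervated glands lay above every control. Log2 intensities averaged 15.41 ± 1.50 in denervated glands, against 13.24 ± 3.51 in controls (SD, n = 5 each). The log2 difference of 2.17 was 0.68 without the sham gland, and 0.70 without denervated 1, contralateral 1 and sham. Among the remaining 7 glands, contralateral 3 lay above denervated 5, so the groups overlapped. Of 6 neutrophil markers measured, 2 had a higher mean in denervated glands, and their summed intensity was 1316 to 2777 in denervated and 1755 to 2864 in control glands. Among these markers, S100a8 (57 to 676), S100a9 (35 to 771) and Mmp9 (38 to 753) fell below the floor in some glands of both groups. The sums thus measure neutrophils poorly, and the part of neutrophils in the Lcn2 values was not tested.

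**Figure D2:**
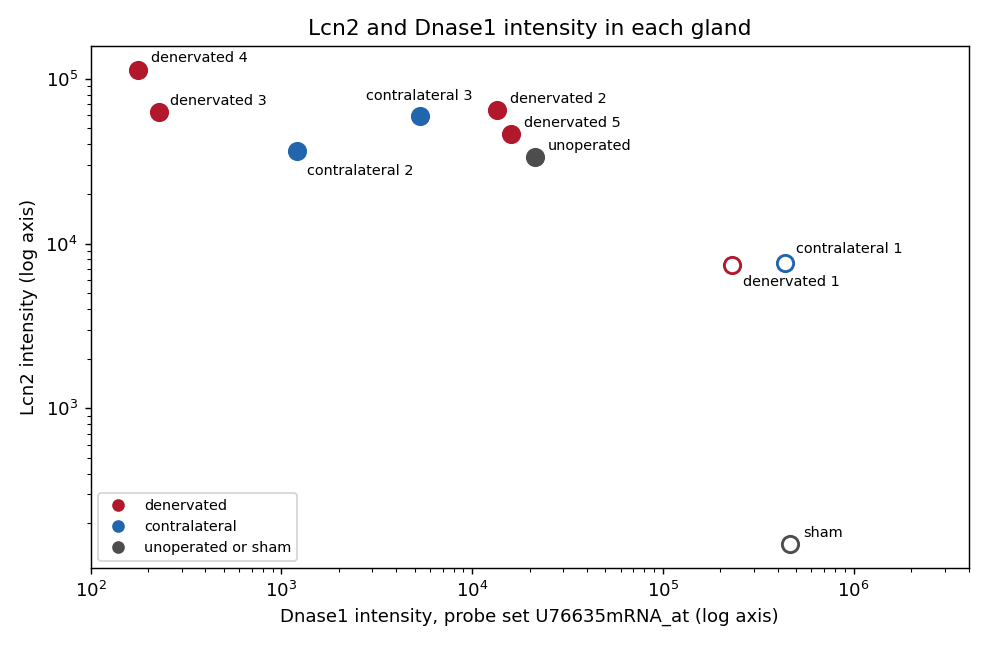
Lcn2 intensity against Dnase1 intensity in each gland, both on log axes, with open points for denervated 1, contralateral 1 and sham. The 3 glands with Dnase1 at 231646 or more have the 3 lowest Lcn2 values, 149 to 7578, and the other 7 glands have Lcn2 from 33592 to 113652.

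**Figure D3:**
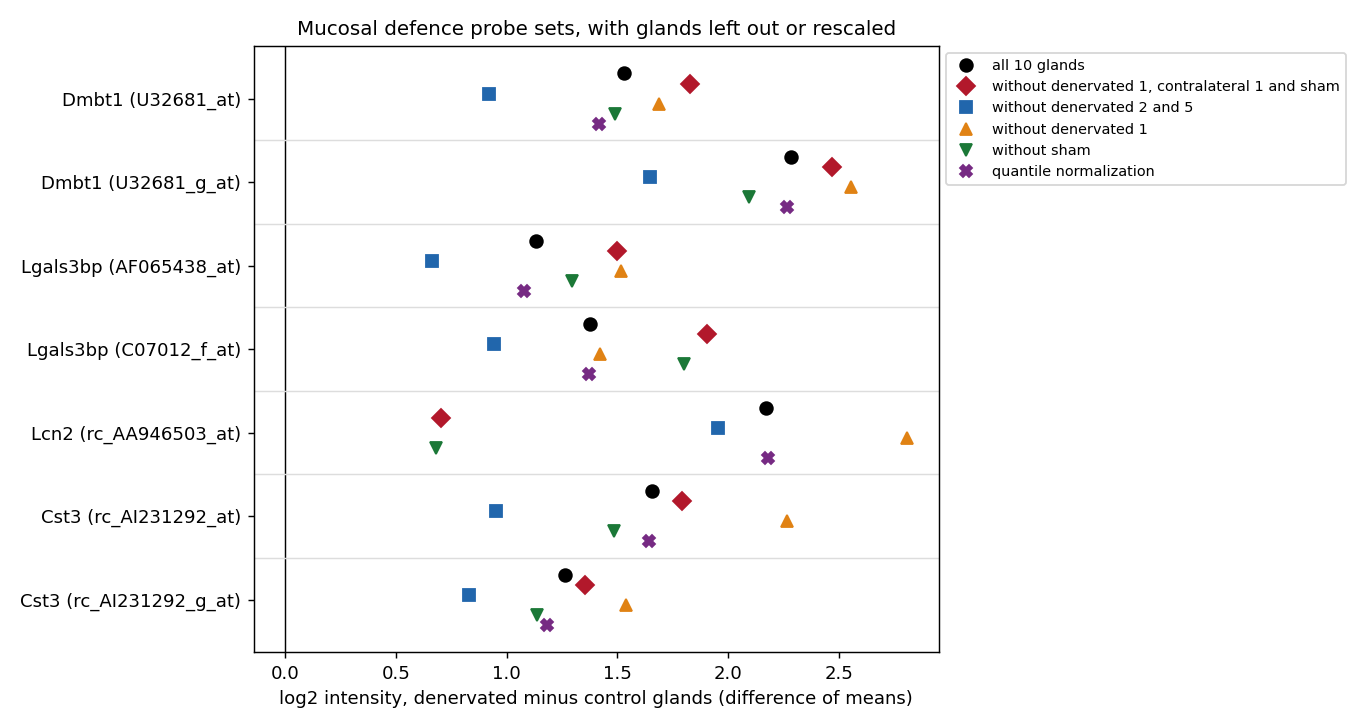
Difference in mean log2 intensity, denervated minus control glands, for each probe set, with all 10 glands, with glands left out and after quantile normalization. All differences are above 0, a sign that leaving out glands could not change for Dmbt1. With all 10 glands, 44.6% of all probe sets tested were higher in denervated glands. Lcn2 has the widest span of those drawn, from 0.68 without the sham gland to 2.81 without denervated 1.

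The order among the control glands was not used in choosing the genes, and contralateral glands were tested against the unoperated and sham glands with limma. None of the 7 probe sets passed. Over the whole array 0 of 6118 probe sets (0%) had an adjusted p under 0.05, and 299 (4.89%) had an unadjusted p under 0.05. Lgals3bp was lower in contralateral glands at both probe sets, with log2 differences of -0.95 ± 0.62 and -2.20 ± 0.59 (SE; limma adjusted p = 0.977 and 0.967, unadjusted 0.151 and 0.00263). All 3 contralateral glands lay below the unoperated and sham glands at both, an order found in 15.2% of all probe sets. Dmbt1 differed by 0.53 ± 0.53 and 0.78 ± 0.58 (adjusted p = 0.981 and 0.978). Cst3 differed by 0.73 ± 0.48 and 0.50 ± 0.84 at the brighter and the dimmer probe set (adjusted p = 0.977 and 0.981), and at the brighter all 3 contralateral glands lay above the unoperated and sham glands, as in 6.83% of all probe sets. Lcn2 differed by 3.47 ± 1.69 (adjusted p = 0.967), and by -0.40 without the sham gland and 7.34 without the unoperated gland. Leaving out each gland, the dimmer Cst3 probe set gave 0.11, without the sham gland, to 0.96, without contralateral 1, and the Dmbt1 probe sets 0.35, without contralateral 1, to 0.76, without contralateral 3, and 0.50, without the sham gland, to 1.13, without contralateral 3.

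Genes that work with these proteins were taken from 6 lists and set against the whole array in denervated and control glands. By limma, 0 of the 6118 probe sets (0%) passed an adjusted p of 0.05, and an unadjusted p under 0.05 went with a higher level in 5.02% and a lower level in 4.66%. Over the 3621 genes tested, 44.4% were higher in denervated glands and the median log2 difference was -0.08. None of the list genes passed, so the differences that follow are values and not calls. Without denervated 1, 1.13% of the 6118 probe sets passed the adjusted p, and 8.56% were higher with an unadjusted p under 0.05. Contralateral 1 and sham, which stood apart with denervated 1, stayed in that fit. Without these glands too, 0 of the 6118 probe sets passed. Macrophage and monocyte markers (11 of 12 higher, median 0.53) and fibroblast and matrix markers (9 of 10 higher, median 1.40) were also higher on average in denervated glands, and their part in the list values was not tested.

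Among other proteins of mucosal defence, 17 of 28 genes were higher and the median was 0.09, and an unadjusted p under 0.05 was reached by 4 higher and 0 lower genes. The complement protein C3 had a mean log2 intensity of 14.18 ± 1.28 in denervated and 12.34 ± 1.23 in control glands (SD, n = 5 each), a difference of 1.84 ± 0.62 (SE, limma adjusted p = 0.437), and 1.64 at its other probe set. The collectin Sftpd, which coats microbes, had 13.80 ± 0.67 in denervated and 12.59 ± 0.92 in control glands. Rnase4 differed by 0.94 ± 0.42, and the complement protease Cfd by 1.63 ± 0.75. Without denervated 1, C3 had a limma adjusted p of 0.0437 with a difference of 2.40 ± 0.49, where 69 of 6118 probe sets passed. In that fit 7 higher genes of this list had an unadjusted p under 0.05. Without contralateral 1 and sham as well, 0 of the 6118 probe sets passed.

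Of 12 cystatins and cathepsins, 7 were higher, with a median of 0.44, and an unadjusted p under 0.05 was reached by 2 higher genes and 1 lower gene. The cystatins are the family of Cst3, which inhibits the cysteine proteases among the cathepsins. Cathepsin K, Ctsk, had a mean log2 intensity of 10.57 ± 0.49 in denervated and 9.40 ± 0.34 in control glands (SD, n = 5 each), a 2.25-fold higher level. Cathepsins Ctsb and Ctsl differed by 0.87 ± 0.37 and 0.51 ± 0.24, while the cystatin Cyss, known from salivary glands, differed by -1.03 ± 0.40 (limma adjusted p = 0.437 to 0.522 for the 4). At other probe sets Ctsl differed by 0.60 and Cyss by -2.04. Ctss, a cathepsin of macrophages that is also in the macrophage list, differed by 0.54. The median of this list was 0.19 without denervated 2 and 5, and without denervated 1 it was 0.58, with 7 higher genes at an unadjusted p under 0.05.

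Carriers of immunoglobulins and plasma cell genes were measured for 6 genes, of which 5 were higher, with a median of 0.58 that was 0.05 without denervated 2 and 5. The Fc receptor Fcgrt, which transports immunoglobulin G, differed by 0.71 ± 0.31 (limma adjusted p = 0.480). Fcgrt was the only gene of this list with an unadjusted p under 0.05, and its other probe sets gave 0.61 and 1.11. Leaving out each gland gave a median of 0.31, without denervated 3, to 0.83, without denervated 1, and 0 to 3 higher genes at an unadjusted p under 0.05. Cd74, the chaperone of MHC class II, differed by 0.61 ± 0.28, and by 0.83 to 0.96 at its other probe sets. Sdc1 differed by 0.70 ± 0.46, and by 0.21 at its other probe set, and B2m by 0.55 ± 0.47. The immunoglobulin chain gene Iglc1, among the 5 higher, differed by 0.03 ± 0.32, and Tnfsf13 by -0.23 ± 0.21.

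A list of 11 genes held 5 galectins, the binding partners of Lgals3bp, the SRCR protein Cd5, the cell surface proteins Cd9, Cd82 and Itgb1, and Gp2 and Umod, which share a zona pellucida domain with Dmbt1. Of the 11, 6 were higher and 5 lower, with a median of 0.11 and 0 at an unadjusted p under 0.05. The sign of that median turned with single glands: it was -0.12 without denervated 2, -0.05 without denervated 5 and -0.07 without sham, against 0.43 without the unoperated gland. Without denervated 1, 4 higher genes had an unadjusted p under 0.05. Galectin genes pointed both ways: Lgals3, Lgals1 and Lgals7 differed by 0.94 ± 0.64, 1.22 ± 0.86 and 1.33 ± 0.81, and Lgals9 by -0.84 ± 0.49 (limma adjusted p = 0.604 to 0.657). Lgals9 differed by -0.63 at its other probe set. Lgals7 was at the floor in 1 denervated and 3 control glands. Among 15 lipocalins and genes of iron handling, 7 were higher and 0 had an unadjusted p under 0.05, with a median of -0.09 that was 0.35 without denervated 1, contralateral 1 and sham. Leaving out 1 gland turned it to 0.25 without denervated 1, 0.15 without sham and 0.04 without contralateral 3. Hmox1, which frees iron from haem, differed by 0.86 ± 0.45 and the transferrin receptor Tfrc by -0.88 ± 0.53. The iron importer Slc11a2 differed by -0.55 ± 0.32, and Lrp2, an endocytic receptor that binds lipocalins, by 0.70 ± 0.50. At other probe sets Hmox1 differed by 1.10, Slc11a2 by -0.15 and -0.77, and Lrp2 by 0.57 and 0.21.

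A list of NF-kappaB, interferon and interleukin signalling held cytokines, their receptors, kinases, transcription factors, the inhibitor Nfkbia and the adhesion molecules Icam1 and Vcam1. In it 15 of 23 genes were higher with a median of 0.10, and an unadjusted p under 0.05 was reached by 4 higher and 0 lower genes. The interferon regulator Irf7 had a mean log2 intensity of 11.29 ± 1.56 in denervated and 9.13 ± 0.65 in control glands (SD, n = 5 each), and differed by -0.33 at its other probe set. Cebpb, a transcription factor of acute phase genes, differed by 1.01 ± 0.36 and 1.00 at its 2 probe sets, Irf8 by 1.55 ± 0.59, and Nfkb1, a subunit of NF-kappaB, by 1.05 ± 0.41 (limma adjusted p = 0.435 to 0.451 for the 4). Without denervated 1, Irf7 had a limma adjusted p of 0.0270, where 69 of 6118 probe sets passed. Without contralateral 1 and sham as well, 0 of the 6118 probe sets passed. Without denervated 2 and 5, 0 genes of this list had an unadjusted p under 0.05 and its median was -0.07.

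**Figure D4:**
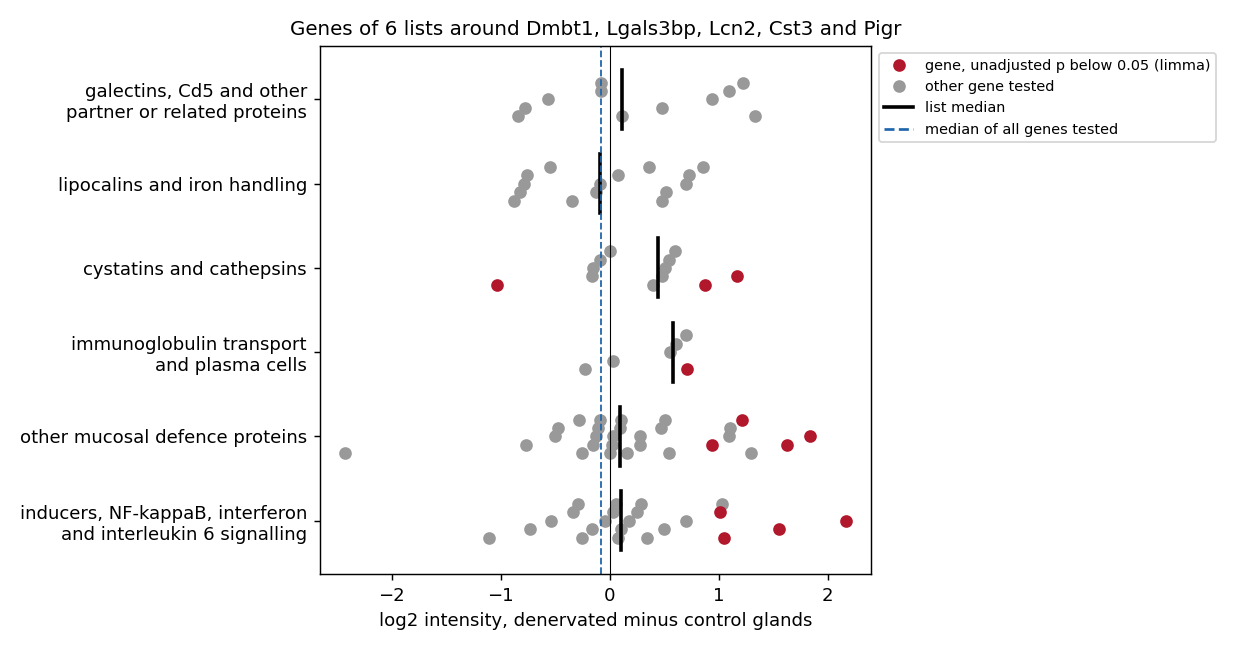
Log2 difference, denervated minus control glands, of each gene of 6 lists (points), with each list's median (black bar) and the median of all 3621 genes tested (dashed line, -0.08). Red points have an unadjusted limma p under 0.05. Most points of each list lie between -1 and 1, and the red points are mostly above 0.

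Some genes had a pattern close to that of Dmbt1 over the 10 glands. By Pearson's r of log2 intensity with the brighter Dmbt1 probe set, the nearest were the peptidase Dpep1 (0.951), the tubulin Tubb5 (0.946), the replication factor Mcm6 (0.936), the apoptosis regulator Bad (0.934) and the ribosomal protein Rpl13a (0.925). Other probe sets of these genes gave 0.35 for Dpep1, 0.90 for Tubb5, 0.51 and 0.66 for Mcm6 and 0.89 for Rpl13a. The brighter Cst3 probe set had 0.885 with Dmbt1, AF065438_at of Lgals3bp 0.663 and Lcn2 0.346. Nearest to Lcn2 were Nras (0.972), Gstk1 (0.935), Trap1 (0.934), Man2b1 (0.928) and Tpd52l2 (0.926), with -0.28 for another probe set of Nras and -0.05 for another of Gstk1. These values of r are descriptions over 10 arrays that also differ as whole sets, and the sham gland, far below the others for Lcn2, enters each r with Lcn2.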

How the data were processed

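Total RNA of 10 glands was measured on 1 array each. The authors deposited 1 linear intensity per probe set and array, already scaled, as the values show: trimmed by 2% at each end, array means spanned 0.0718% of their mean. The labels name no software and hold no detection calls. Intensities under the 20th percentile (156.2) were raised to it before log2, so differences with floored values are understated. Without 59 control probe sets, 8740 remained, of which the 6118 with a mean log2 above the 30th percentile were tested with limma 3.58.1 in R 4.3.3 (lmFit, eBayes with trend, two-sided, Benjamini-Hochberg over all probe sets, threshold 0.05). The same steps were tested on simulated data. Precision is limited by the number of arrays, with a median standard error of 0.504 for denervated minus control glands.

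Symbols came from the platform annotation: 7006 probe sets carried 1, 308 several and 1426 were unlisted, and 6985 gene IDs matched the RefSeq GRCr8 table. Promoters, found for 4 of the 5 genes, came from RefSeq. The 5 genes and the lists were chosen with earlier results of these data known. The genes named are all probe sets of the 5, up to 4 genes per list by smallest unadjusted p (1 probe set per gene, the brightest), and the 5 genes nearest Dmbt1 and Lcn2. Alternatives changed the scaling, floor, filter, variance trend, array weights, block and glands. Python 3.11.15 and matplotlib 3.10.9 were used.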

Additional observations from a re-analysis of the deposited data

Results flagged for a closer look

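In the list of immunoglobulin carriers and plasma cell genes, the score of denervated 1 (mean log2 difference from control glands) was -0.35, far below the other 4 denervated glands by Dixon's test at the 95% level. It was the 1 gland singled out among 26 groups of 5 checked, and chance alone singles out about 1 group in 20.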

How the results depend on the processing

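In all 22 alternatives the mean of each of the 7 probe sets was higher in denervated than in control glands, where the probe set was tested. In the main fit 44.6% of all probe sets tested were higher. The 5 genes were chosen with earlier results of these data known, so their shared sign is a description only. Dmbt1 was chosen by the contrast of denervated against control glands, so leaving out glands could not change its sign. Changes of floor could not alter the differences of its probe sets, since all its values lay above each floor. Filter and variance trend do not enter a difference of means. The range was 0.92 to 1.83 for the brighter Dmbt1 probe set and 0.83 to 1.54 for the brighter Cst3 (log2). It was 0.66 to 1.55 for AF065438_at and 0.94 to 2.47 for C07012_f_at of Lgals3bp, and 0.30 to 2.82 for Lcn2. The ends 1.55, 2.47 and 0.30 are those of the replicate block, where the unoperated and sham glands do not enter the difference. Leaving out each gland gave 0 to 69 probe sets at an adjusted p under 0.05 for denervated against control glands, with 69 without denervated 1, and 0 to 1 for contralateral against unoperated and sham glands, with 1 without the unoperated gland. For denervated against control glands, 0 probe sets passed without denervated 1, contralateral 1 and sham. With no filter on dim probe sets the contralateral contrast gave 7. The Lcn2 difference in that contrast was -0.40 to 7.34 leaving out each gland, negative without the sham gland. Scaling to a common median gave a median over all probe sets of 0.04, against -0.08 as deposited, for denervated against control glands, and of 0.18, against -0.15, for contralateral against unoperated and sham glands. It gave 70.6% of unadjusted calls as higher in denervated glands, against 51.9% with the deposited scaling, and a median of 0.01 for lipocalins and iron genes. Calls at an unadjusted p under 0.05 numbered 1104 without denervated 1, 383 without denervated 2 and 209 without denervated 2 and 5, against 592. Those of the contralateral contrast numbered 576 with no filter, 173 with a filter at the 50th percentile, 499 with array weights and 197 without the sham gland, against 299. Same-numbered denervated and contralateral glands had correlated deviations of 0.488, 0.037 and 0.164, against -0.336 to 0.232 for unlike numbers. The value of 0.488 is that of denervated 1 and contralateral 1, which both stood apart. These values do not settle whether the numbers mark pairs, and the main fit was unpaired. With the number as a replicate block, the difference rests only on denervated and contralateral glands that share a number. In that fit 0 probe sets passed, and the differences were 1.25 for the brighter Dmbt1 and 0.92 for the brighter Cst3. They were 1.55 and 2.47 for AF065438_at and C07012_f_at, and 0.30 for Lcn2. The contralateral contrast has no such fit. The causes of these shifts were not tested.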
